A study of Rhinolophus ferrumequinum with 8 samples.

Results

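Notch receptors, their ligands and the nuclear genes that act with them were followed through 4 physiological states in the spleen of the greater horseshoe bat, a small insect-eating bat that hibernates. The group holds 10 genes of 19652 in the deposited table: the receptors NOTCH1, NOTCH2 and NOTCH4, the ligands DLL1, DLL4 and JAG1, the DNA-binding mediator RBPJ, the targets HES1 and HEY1, and DTX1. They were looked up by gene name, and the group was chosen from earlier results of these libraries in which HES1 stood higher in winter active bats. The values of HES1 in winter active bats are therefore given as a description with no test. All 10 members had a mean level of at least 1 over the 8 libraries and were among the 13542 genes tested.

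The libraries came from whole spleens of wild female bats, with no manipulation of any gene and no age given in the sources used here. Summer active bats were taken in July. The other 3 groups were taken in November: bats in torpor, the cold and nearly inactive phase of hibernation, bats in arousal held for 2 h after capture, and winter active bats held for 26 h. Each state had 2 biological replicates, called 1 and 2 below. Season, captivity and body state change together between July and November and cannot be told apart. Within November, body state and the time held change together too, and cannot be told apart either. No time held is given for torpor.

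Notch receptors sit on the surface of one cell and bind ligands of the Delta-like and Jagged families on a neighbouring cell. Binding lets proteases cut the receptor. The freed intracellular part enters the nucleus, joins RBPJ and Mastermind-like coactivators, and switches on targets such as the HES and HEY repressors. In the spleen, NOTCH2 and DLL1 are known for the making of marginal zone B cells and of one class of dendritic cells. NOTCH4, DLL4 and JAG1 are well known from blood vessels, and NOTCH1 from T-cell fate and vessel growth.

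Levels are rescaled TPM, a read signal corrected for transcript length, so genes can be set side by side within a library. Means carry the SD over the 2 libraries of a state. Differences are in log2(level + 1) with limma's standard error (SE), and adjusted p-values are limma's over all tested genes. The table carries no read counts, so the depth behind a level is unknown. Replicates correlated at 0.915 to 0.959 over log2 levels of tested genes, lowest in summer active, and splenic TLX1, a transcription factor needed to form the organ, was present in all libraries (15.4 to 46.0). Setting each column to a total of 1000000 moved the median difference of all genes from -0.055 to 0.29 in torpor against summer active and from 0.046 to 0.55 in winter active against summer active. Against torpor it moved from 0.11 to 0.45 for arousal and from 0.079 to 0.24 for winter active. Of all calls, 10 were higher and 66 lower in torpor against summer active, and 20 and 36 after that rescaling. In winter active against summer active 19 were higher and 121 lower, and 662 and 117 after it.

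Among the receptors, NOTCH2 was the most abundant in every library. NOTCH2 (NCBI gene 117014380), the receptor of marginal zone B cells, stood at 25.0 and 16.3 in summer active 1 and 2, 20.9 and 43.8 in torpor, 78.4 and 31.9 in arousal, and 31.4 and 38.8 in winter active. Arousal 1 was far above all others, and the libraries of neighbouring states in the order arousal, winter active, torpor, summer active overlapped. NOTCH1 (NCBI gene 117031936), which drives T-cell fate and vessel growth, stood at 5.56 and 3.08 in summer active, 3.85 and 6.09 in torpor, 12.8 and 5.02 in arousal, and 7.24 and 6.44 in winter active. Here too arousal 1 was the highest and summer active 2 the lowest. NOTCH4 (NCBI gene 117020739), a receptor of endothelial cells, stood at 5.60 and 1.69 in summer active, 2.07 and 2.71 in torpor, 3.87 and 4.29 in arousal, and 4.43 and 3.29 in winter active. The 2 summer active libraries held both its highest and its lowest value, and no neighbouring states in its order were apart.

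The ligands were led by DLL1 in all libraries but the 2 of arousal. DLL1 (NCBI gene 117019076) stood at 22.5 and 11.2 in summer active, 14.3 and 15.3 in torpor, 20.5 and 18.0 in arousal, and 33.4 and 28.8 in winter active. Both winter active libraries lay above the other 6. Arousal lay above torpor, and the wide summer active range overlapped with both. JAG1 (NCBI gene 117015988), a Jagged ligand of vessel walls and stroma, stood at 10.8 and 7.35 in summer active, 6.15 and 6.62 in torpor, 22.5 and 19.0 in arousal, and 17.6 and 18.8 in winter active. Its 4 states did not overlap at all, in the order arousal, winter active, summer active, torpor, although the closest libraries of the first 2 states were 19.0 and 18.8. With columns set to equal totals, torpor lay within the range of summer active. DLL4 (NCBI gene 117024150), the ligand of arterial and sprouting vessels, was low throughout, with 0.965 and 1.47 in summer active, 1.30 and 1.77 in torpor, 2.98 and 2.34 in arousal, and 1.76 and 2.63 in winter active. The neighbours in its order overlapped.

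RBPJ (NCBI gene 117022159), which holds Notch targets silent until the cut receptor arrives, stood at 8.47 and 10.8 in summer active, 7.25 and 4.97 in torpor, 18.8 and 15.6 in arousal, and 10.5 and 15.9 in winter active. Torpor was lowest, apart from every other state, and arousal and winter active overlapped. With columns set to equal totals torpor and summer active overlapped as well.

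HES1 (NCBI gene 117031731), a basic helix-loop-helix repressor and the best known Notch target, stood at 30.5 and 20.7 in summer active, 14.8 and 9.14 in torpor, 36.7 and 40.1 in arousal, and 58.4 and 40.9 in winter active. No neighbouring states overlapped, in the order winter active, arousal, summer active, torpor, although arousal 2 and winter active 2 were close, and these 2 states overlapped with columns set to equal totals. HES1 had the widest span of the members, with the highest library at 6.39 times the lowest. That highest library, winter active 1, belongs to the state whose HES1 level chose the group. HEY1 (NCBI gene 117033983), a related repressor of vessels and heart, stood at 10.6 and 2.72 in summer active, 7.93 and 5.15 in torpor, 9.67 and 8.29 in arousal, and 13.4 and 10.4 in winter active. The 2 summer active libraries were the farthest apart, one above and one below both torpor libraries. DTX1 (NCBI gene 117017454), a ubiquitin ligase that binds the receptor's intracellular part and is a Notch-dependent gene of B cells, was the most abundant member on average. Its levels were 95.0 and 91.3 in summer active, 51.6 and 88.3 in torpor, 70.5 and 60.1 in arousal, and 70.9 and 73.9 in winter active. The summer active libraries were the highest, above all 6 November libraries. Torpor overlapped with arousal and with winter active, while arousal lay just below winter active. With columns set to equal totals, arousal 1 was highest and summer active lay within the range of torpor.

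**Figure D1:**
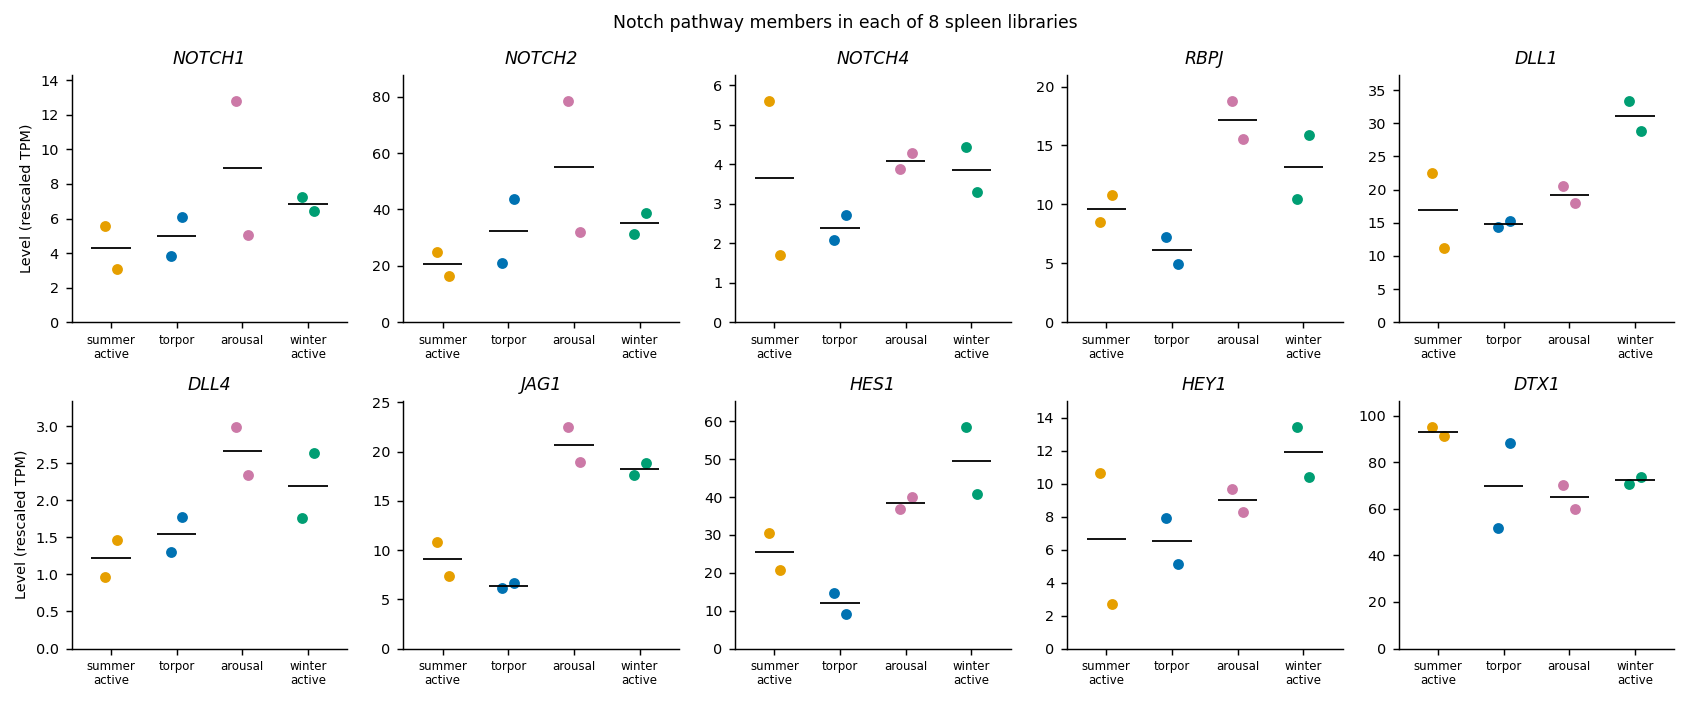
Level of each member (y axis, rescaled TPM, from 0) in the 8 libraries by state (x axis); points are single libraries, with replicate 1 on the left, and bars the mean of 2. On this scale JAG1, RBPJ and HES1 were lowest in both torpor libraries and DTX1 highest in both summer active libraries; with columns set to equal totals this held for HES1 only.

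By state means, 6 of the 10 members were highest in arousal, 3 in winter active, 1 in summer active and none in torpor. The 3 include HES1, whose level in winter active chose the group. Over all tested genes these shares were 35.3%, 16.0%, 29.3% and 19.4%. Of the 6 members highest in arousal, only JAG1 had arousal libraries that did not overlap with those of winter active. Torpor had the lowest mean for 6 members, summer active for 3 and arousal for 1, against 31.2%, 29.5% and 23.9% of all tested genes. With columns set to equal totals, 7 members were highest in arousal and 3 in winter active, and 5 each were lowest in torpor and in summer active. DTX1 then had its highest mean in arousal in place of summer active. The shares of all genes were not computed for these rescaled counts, which are therefore not a result about the members. That rescaling moved all genes the same way. Without overlap, 55.9% of all genes were then higher in arousal than in torpor, and 66.3% in winter active than in summer active.

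The mix of receptors and ligands within a library does not depend on the scaling between libraries. NOTCH2 made up 45.4% to 60.5% of the summed level of NOTCH1 to NOTCH4, and its level was 4.34 to 7.20 times that of NOTCH1. NOTCH3, a receptor of smooth muscle and pericytes outside the group of 10, held 21.7% to 37.8%. NOTCH4 held 10.5% in summer active 1 and 2.75% in arousal 1. The summed receptor level was 26.9 in summer active 2 and 141 in arousal 1, and 38.5 to 78.0 in the other 6 libraries.

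Of the summed ligand level, JAG1 held 43.3% and 43.5% in arousal 1 and 2, against 24.7% to 35.1% in the other 6 libraries. DLL1 held 39.5% and 41.2% in arousal and 48.1% to 57.8% elsewhere. JAG1 was accordingly at 1.10 and 1.06 times the level of DLL1 in the arousal libraries. That ratio was 0.480 and 0.655 in summer active, 0.430 and 0.434 in torpor, and 0.529 and 0.653 in winter active, so the arousal libraries stood apart from all 6 others. This separation was noticed in the values and was not tested. JAG2, a second Jagged ligand, held 6.28% to 14.2% and DLL4 2.42% to 6.68%. DLL3 was listed at 0 in 6 libraries.

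**Figure D2:**
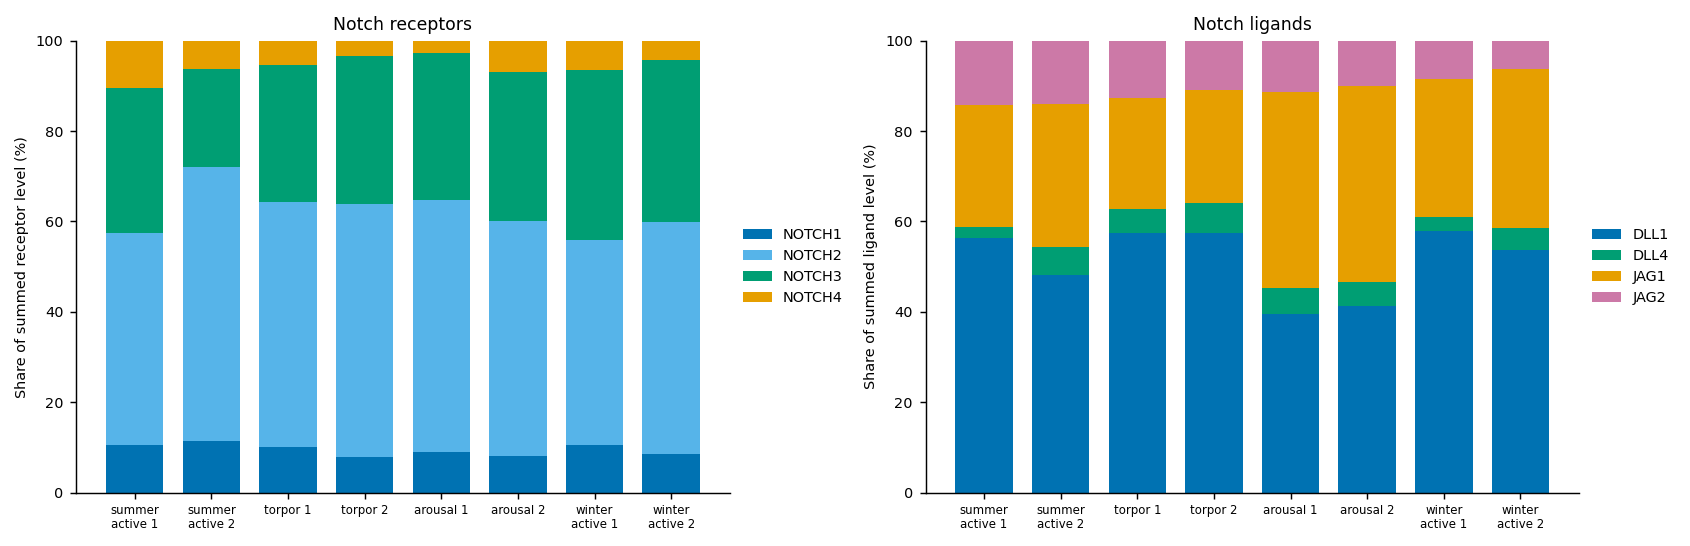
Share of the summed receptor level (left) and summed ligand level (right), in percent (y axis), for each of the 8 libraries (x axis); colours are genes, and DLL3, at most 0.082%, is not drawn. JAG1 has its largest share, 43.3% and 43.5%, in the 2 arousal libraries.

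Torpor against summer active asks how the hibernating spleen differed from the summer spleen. HES1, RBPJ, DTX1 and JAG1 were lower in both torpor libraries than in either summer library, and no member was higher in both. With columns set to equal totals, HES1 alone stayed lower without overlap, and NOTCH2 and DLL4 were higher without overlap. HES1 stood at 12.0 ± 3.97 in torpor against 25.6 ± 6.97 (difference -1.05, SE 0.31, adjusted p = 0.182). RBPJ stood at 6.11 ± 1.61 against 9.61 ± 1.62 (difference -0.59, SE 0.29, adjusted p = 0.375). DTX1 and JAG1 differed by -0.46 (SE 0.26) and -0.43 (SE 0.24), with adjusted p = 0.437 and 0.427. Rescaling to equal totals left -0.069 for DTX1, -0.081 for JAG1, -0.24 for RBPJ and -0.67 for HES1. DTX1 stood at -0.076 without torpor 1 and -0.84 without torpor 2, and JAG1 at -0.18 without summer active 1 and -0.68 without summer active 2. RBPJ stood at -0.35 without torpor 2.

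None of the 10 members passed limma's threshold of an adjusted p under 0.05 in torpor against summer active, where 0.561% of all tested genes did. After rescaling none passed either, beside 0.414% of all genes. HES1 alone had an unadjusted p under 0.05, as did 16.0% of all genes, and since its torpor level may have entered the choice of the group, that p is not independent of the choice. The 4 members lower without overlap, 3 of them other than HES1, compare with 26.0% of all tested genes, and the 0 higher ones with 20.4%. After rescaling these were 1 lower member, HES1 itself, and 2 higher members, beside 10.8% and 45.1%. NOTCH2 differed by 0.56 (SE 0.49), DLL4 by 0.20, NOTCH1 by 0.18, HEY1 by 0.17, DLL1 by -0.10 and NOTCH4 by -0.32. The median of the members was -0.21 against -0.055 over all genes, and it was 0.18 without summer active 1, -0.53 without summer active 2, -0.086 without torpor 1 and 0.11 after rescaling to equal totals. DLL1 turned to 0.26 after that rescaling.

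The comparison of arousal with torpor sets bats held for 2 h after capture beside other bats in torpor. JAG1, HES1 and RBPJ stood higher in both arousal libraries than in either torpor library, and the receptors and other ligands were also above torpor in mean level. JAG1 stood at 20.7 ± 2.47 against 6.38 ± 0.332, a ratio of 3.25 (difference 1.55, SE 0.24, adjusted p = 0.142). HES1 stood at 38.4 ± 2.37 against 12.0 ± 3.97, a ratio of 3.21 (difference 1.64, SE 0.31, adjusted p = 0.142). RBPJ stood at 17.2 ± 2.27 against 6.11 ± 1.61, a ratio of 2.81 (difference 1.37, SE 0.29, adjusted p = 0.143). Only 1.51%, 1.82% and 2.78% of tested genes had a larger difference than HES1, JAG1 and RBPJ.

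These differences did not pass the threshold, which no gene at all passed by limma in arousal against torpor (0% of 13542). With an unadjusted p under 0.05 there were 3 members, JAG1, HES1 and RBPJ, and 19.7% of all genes. After rescaling to equal totals these 3 passed, each with a limma adjusted p = 0.0456, with differences of 1.92, 2.01 and 1.73 beside an all-gene median of 0.45. Of all genes 3.29% passed there, and in 441 of these 445 arousal was higher. In fits without 1 library the differences lay between 1.44 and 1.67 for JAG1, 1.32 and 1.96 for HES1, and 1.13 and 1.60 for RBPJ. The HES1 value shares its 2 torpor libraries with a winter active comparison that may have singled the gene out, so its p is not independent of the choice.

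The other members differed less in arousal against torpor. NOTCH2 differed by 0.71 (SE 0.49), NOTCH1 by 0.64 (SE 0.44), NOTCH4 by 0.59 (SE 0.43), DLL4 by 0.53 (SE 0.30), HEY1 by 0.43 (SE 0.51) and DLL1 by 0.36 (SE 0.31), with adjusted p = 0.351 to 0.657. Without arousal 1, NOTCH1 differed by 0.039 and NOTCH2 by 0.074, so both values rest on that library. DTX1 differed by -0.053 (SE 0.26) and by 0.32 after rescaling. The libraries of 7 members did not overlap, HES1 included, all of them higher in arousal, against 31.9% of all tested genes. With HES1 left out these were 6 of 9. No member was lower without overlap, against 22.2%. After rescaling 8 were higher, 7 of them other than HES1, and 0 lower, beside 55.9% and 6.78% of all genes. The median of the members was 0.61 beside 0.11 over all genes, 0.36 without arousal 1 and 0.95 without arousal 2.

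The comparison of winter active bats with torpor sets bats held for 26 h beside other bats in torpor. HES1 stood at 49.7 ± 12.4 against 12.0 ± 3.97, a ratio of 4.16 (difference 1.98, SE 0.31), as a description. The choice of the group rested on HES1 in winter active bats without naming the state compared, so neither winter active comparison of this gene carries a test. JAG1 stood at 18.2 ± 0.821 against 6.38 ± 0.332, a ratio of 2.86 (difference 1.38, SE 0.24, adjusted p = 0.271). DLL1 stood at 31.1 ± 3.23 against 14.8 ± 0.682, a ratio of 2.10 (difference 1.02, SE 0.31, adjusted p = 0.310). RBPJ stood at 13.2 ± 3.82 against 6.11 ± 1.61, a ratio of 2.16 (difference 0.99, SE 0.29, adjusted p = 0.293).

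No gene passed by limma in winter active against torpor (0% of 13542), and among the 9 members other than HES1 the 3 just named had an unadjusted p under 0.05, as did 13.2% of all genes. HEY1 differed by 0.79 (SE 0.51), NOTCH4 by 0.52 (SE 0.43), NOTCH1 by 0.42 (SE 0.44), DLL4 by 0.33 (SE 0.30), NOTCH2 by 0.20 (SE 0.49) and DTX1 by 0.098 (SE 0.26). Libraries did not overlap in 7 members, HES1 included, all higher in winter active, beside 29.6% of all genes. The count of members lower without overlap was 0, beside 21.3%. Without HES1 6 of 9 were higher. After rescaling 8 were higher, HES1 included, and 0 lower, beside 40.7% and 11.7%, and 0 members passed, as did 0% of all genes. The median was 0.65 with HES1 and 0.52 without it, beside 0.079 over all genes. NOTCH2 and DTX1 turned to -0.32 and -0.28 without torpor 1.

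Winter active against summer active sets the 2 active states side by side across seasons. DLL1, DLL4, JAG1 and HEY1 had mean levels about 1.8 to 2.0 times those of summer, and DTX1 was lower. JAG1 stood at 18.2 ± 0.821 against 9.08 ± 2.44 (difference 0.95, SE 0.24, adjusted p = 0.154). DLL1 stood at 31.1 ± 3.23 against 16.9 ± 7.98 (difference 0.92, SE 0.31, adjusted p = 0.259). HEY1 stood at 11.9 ± 2.15 against 6.67 ± 5.59 (difference 0.96, SE 0.51, adjusted p = 0.415), with the summer spread as wide as the difference. HEY1 differed by 0.14 without summer active 2 and by 1.78 without summer active 1. HES1 stood at 49.7 ± 12.4 against 25.6 ± 6.97, a ratio of 1.94 (difference 0.93, SE 0.31, and 1.48 after rescaling to equal totals), as a description.

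Of the 9 members tested here, HES1 being left out, none passed limma's threshold in winter active against summer active, which 1.03% of tested genes passed. JAG1 and DLL1 had an unadjusted p under 0.05, as did 14.8% of all genes. After rescaling to equal totals both passed (limma adjusted p = 0.0442 for JAG1 at 1.47, and 0.0482 for DLL1 at 1.46), beside an all-gene median of 0.55, where 5.75% of all genes passed, 662 of 779 of them higher. DLL1 also passed without summer active 1, at 1.39 (limma adjusted p = 0.0455), and stood at 0.44 without summer active 2. NOTCH2 differed by 0.76 (SE 0.49), NOTCH1 by 0.60 (SE 0.44), DLL4 by 0.52 (SE 0.30), RBPJ by 0.40 (SE 0.29), NOTCH4 by 0.20 (SE 0.43) and DTX1 by -0.36 (SE 0.26). DTX1 turned to 0.20 after rescaling, and NOTCH4 to -0.45 without summer active 2. Libraries did not overlap for 6 members higher in winter active, HES1 included, and for 1, DTX1, lower, beside 27.2% and 21.9% of all tested genes. Without HES1 5 of 9 were higher. After rescaling 9 members were higher, HES1 and DTX1 included, and 0 lower, beside 66.3% and 5.17%.

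**Figure D3:**
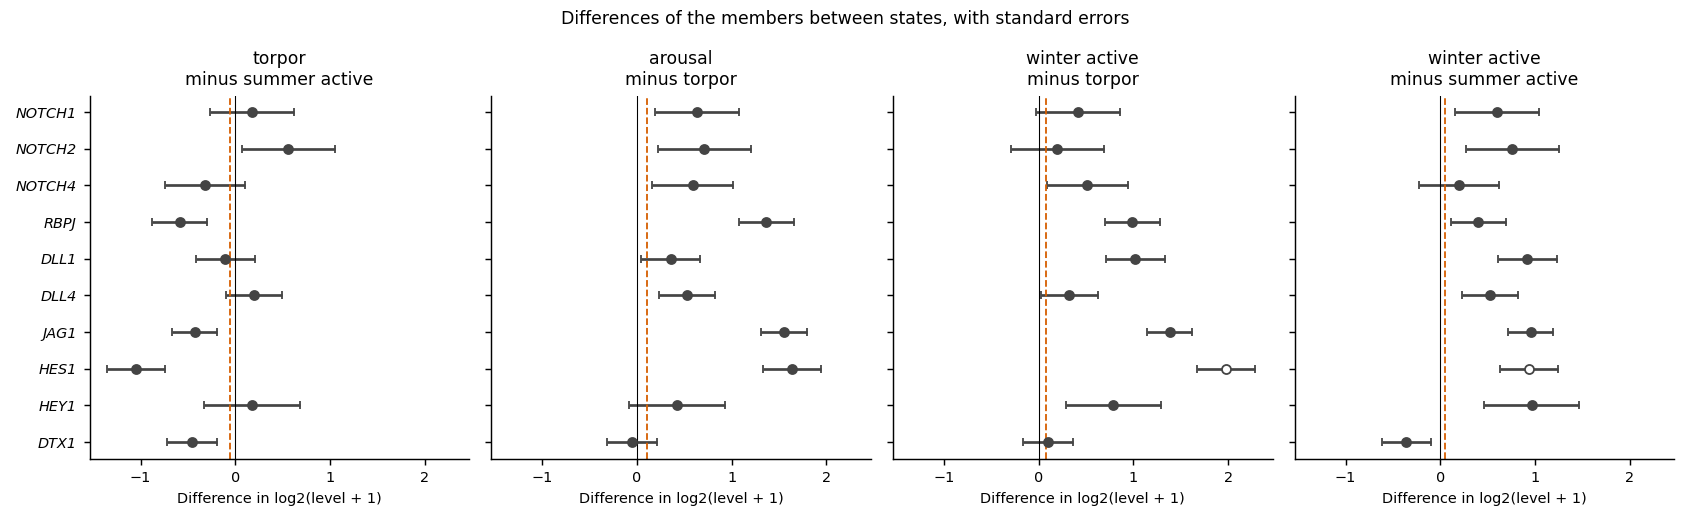
Difference of each member in log2(level + 1) (x axis) in the 4 comparisons, with limma's SE as bars; the dashed line is the median of all tested genes, and open points mark HES1 in the winter active comparisons, which have no test. JAG1, HES1 and RBPJ lie farthest right in arousal minus torpor, at 1.55, 1.64 and 1.37.

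The wider pathway was read from a list of 55 other Notch genes, of which 49 were tested. None passed by limma in any of the 4 comparisons, and 6, 11, 7 and 8 of them had an unadjusted p under 0.05 in the order in which the comparisons were described. The shares over all tested genes were 16.0%, 19.7%, 13.2% and 14.8%, so these counts lie near the background. Their median differences were 0.026, 0.23, 0.16 and 0.24 in that order, beside -0.055, 0.11, 0.079 and 0.046 over all genes. In arousal against torpor 31 of the 49 were above 0 and 18 below, where 58.0% of all genes were above 0. In winter active against torpor 39 were above and 10 below, where 56.7% of all genes were above. After rescaling to equal totals 3 passed in arousal against torpor and 4 in winter active against summer active, all higher, and none in the other comparisons, beside the 3.29% and 5.75% of all genes given above.

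Genes that serve ligands and the nuclear complex had the smallest p in arousal against torpor. MIB1, the ubiquitin ligase that lets ligands be pulled into the sending cell, stood at 10.2 in both arousal libraries and at 1.69 and 3.13 in torpor (difference 1.75, SE 0.34, adjusted p = 0.142). The acetyltransferase EP300, a coactivator, stood at 30.2 and 16.0 against 7.10 and 7.74 (difference 1.45, SE 0.32, adjusted p = 0.143). MAML1, a Mastermind-like coactivator of the Notch and RBPJ complex, stood at 20.6 and 15.7 against 8.49 and 9.90 (difference 0.90, SE 0.24, adjusted p = 0.168). These 3 are the ones that passed after rescaling. On the lower side the smallest p belonged to HES6, a HES relative that counters HES1 (difference -0.70, SE 0.21), the non-canonical ligand DLK1 (-0.99, SE 0.38) and the histone deacetylase HDAC1 (-0.48, SE 0.22), with adjusted p = 0.174, 0.223 and 0.270.

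Against summer active, the genes with the smallest p came from several roles, receptor turnover among them. The comparisons with torpor and with winter active share the 2 summer libraries. NUMB, which removes the receptor from the cell surface, stood at 10.1 and 10.3 in summer active, 19.0 and 18.2 in torpor and 18.7 and 21.0 in winter active, with differences of 0.81 (adjusted p = 0.15) and 0.90 (adjusted p = 0.137). DTX3L, a Deltex relative, differed by 0.74 and 0.89 (adjusted p = 0.254 and 0.208). DTX3, another relative, stood at 36.9 and 37.8 in summer active against 15.8 and 19.9 in torpor and 30.5 and 21.6 in winter active (differences -1.03 and -0.52, adjusted p = 0.121 and 0.358), the second turning to 0.031 after rescaling. The corepressor CTBP1 differed by -0.65 and -0.52 (adjusted p = 0.198 and 0.303), the second turning to 0.049 after rescaling. TLE3, a Groucho corepressor used by HES proteins, differed by 0.96 in torpor (adjusted p = 0.292), and the coactivator MAML3 by -1.09 (adjusted p = 0.129). In winter active the corepressor CIR1 differed by -0.46 (adjusted p = 0.480), which turned to 0.096 after rescaling. NUMB, DTX3L and ITCH, a ligase of receptor breakdown outside the naming rule and chosen after its values were seen, were among the 4 that passed there after rescaling (limma adjusted p = 0.0436, 0.0439 and 0.0482).

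In winter active against torpor the smallest p on the higher side belonged to MAML3 (difference 0.98, SE 0.26), MIB1 (1.20, SE 0.34) and MAML2 (0.92, SE 0.31), with adjusted p = 0.274, 0.292 and 0.324. HDAC1 (-0.50), the splicing and coactivator protein SNW1 (-0.25) and HES6 (-0.24) had the smallest p on the lower side, with adjusted p = 0.383, 0.550 and 0.628. Of the 8 further HES, HEY and NRARP targets listed, 4 were tested, and their medians were 0.086, -0.094, -0.048 and 0.038 in the same order of comparisons.

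**Figure D4:**
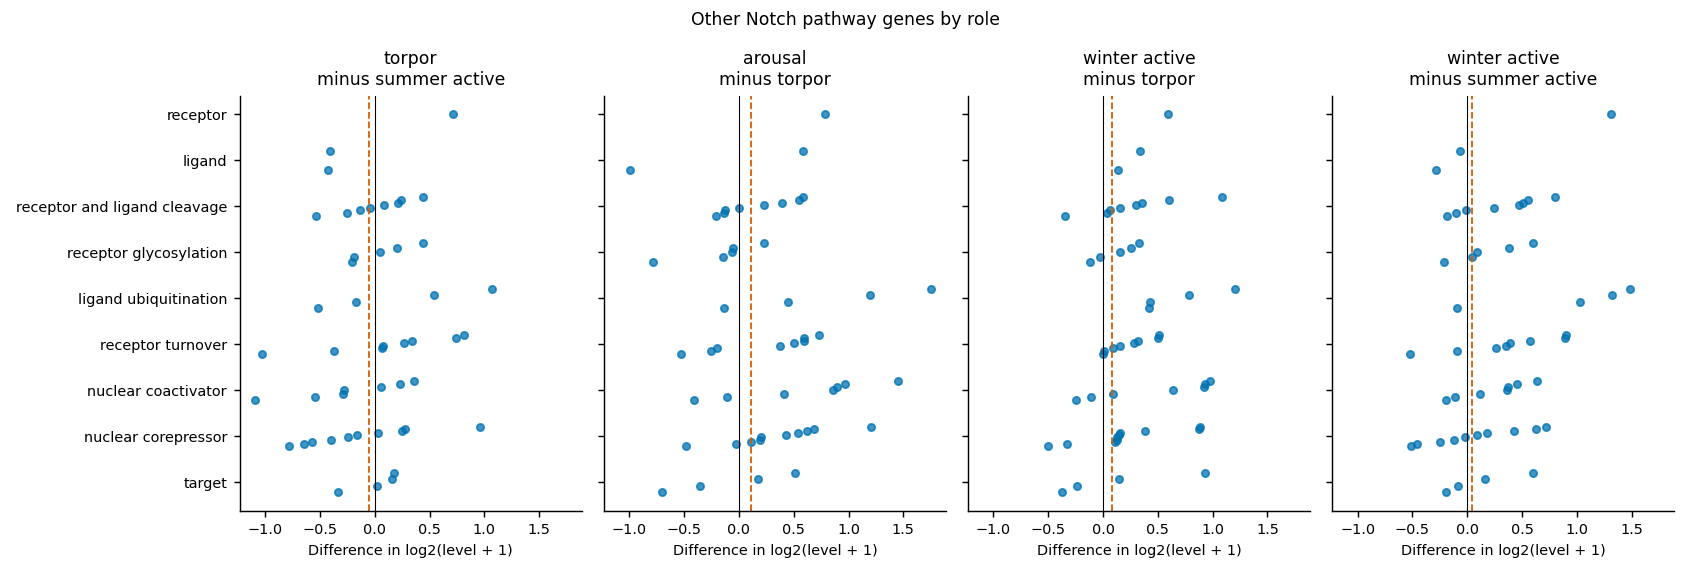
Difference of each of the 49 other tested pathway genes in log2(level + 1) (x axis) by role (y axis) in the 4 comparisons; each point is 1 gene and the dashed line is the median of all tested genes. In arousal minus torpor the points farthest right are MIB1 at 1.75 and EP300 at 1.45.

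The genes whose levels followed HES1 most closely over the 8 libraries, by Pearson's r of log2(level + 1) among 9594 named genes with a mean of at least 5, were IRF8 (r = 0.955), C2H3orf38 (0.954), ENC1 (0.949), FBXL14 (0.944) and GTPBP2 (0.944). IRF8, a transcription factor of dendritic cells and B cells, stood at 118 and 119 in summer active, 86.2 and 58.5 in torpor, 160 and 138 in arousal, and 172 and 135 in winter active. It was lowest in torpor, as HES1 was, but its arousal and winter active libraries overlapped. These r are descriptions of 8 libraries that share the scaling between columns. JAG1 was followed most closely by RGMB, INPP4B and EDEM3 (r = 0.982, 0.979 and 0.977) and RBPJ by TOPORS, KAT6A and KLHL28 (0.989, 0.981 and 0.98). The receptors NOTCH1 and NOTCH2 had other neighbours: DYNC1H1, PHF12 and COL6A3 for the first (0.989, 0.988 and 0.987), and GBF1, ASAP1 and UBE2Z for the second (0.983, 0.982 and 0.976). DYNC1H1, the heavy chain of cytoplasmic dynein, stood at 51.9 in arousal 1 against 20.1 to 32.6 in the other libraries. HEY1 was followed by TBX2, ADRB1 and NR5A1, DLL1 by ATP1B2, DNAJC14 and TBX2, NOTCH4 by PDE2A, HSD17B4 and TP53I11, DLL4 by TNPO1, NEK9 and RAB3GAP2, and DTX1 by SLC41A3, DKK3 and POLM.

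A bulk library cannot tell fewer cells of a type from less RNA per cell, and marker levels are therefore set beside the members. Of 15 endothelial markers 13 were in the table and tested, none was at 0 in any library, and their summed level was 167 in summer active 2 and 485 in summer active 1, 303 and 334 in torpor, 453 and 386 in arousal, and 460 and 441 in winter active. NOTCH4, DLL1 and HEY1, picked here after their values were seen, were all lowest in summer active 2, as were NOTCH1 and NOTCH2. In arousal against torpor 12 of the 13 markers were above 0, with a median of 0.77, and in winter active against torpor 11, with a median of 0.80. Their part in the values of NOTCH4, DLL1, HEY1, JAG1 and HES1 was not tested.

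**Figure D5:**
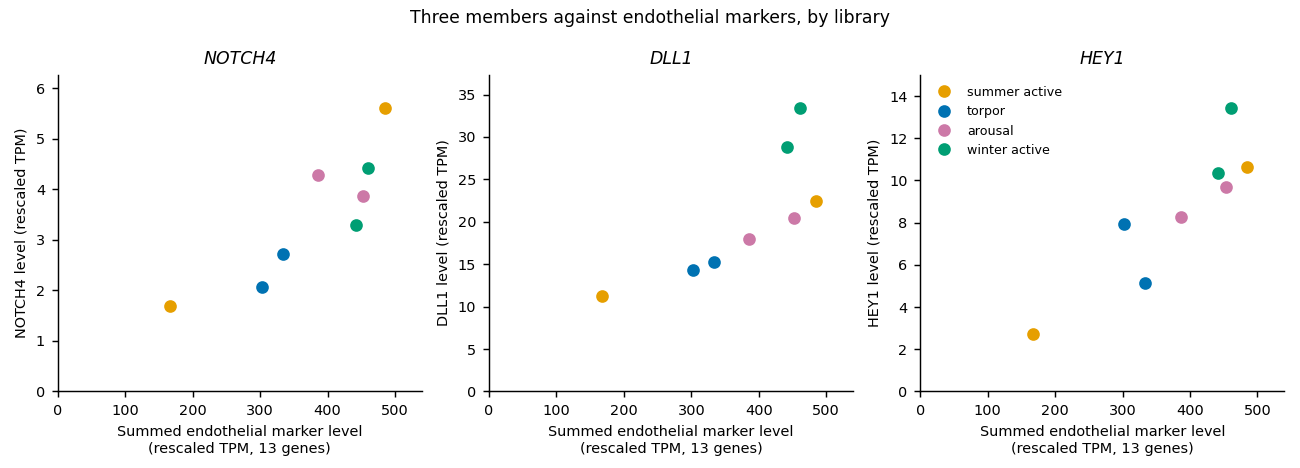
Level of NOTCH4, DLL1 and HEY1 (y axes, rescaled TPM) against the summed level of 13 endothelial markers (x axis, rescaled TPM) in the 8 libraries, coloured by state. Summer active 2, at 167 on the x axis, is lowest for all 3 genes, and the 2 winter active libraries are highest for DLL1.

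Summed B-cell markers (10 of 10) were at 2809 and 2982 in summer active against 684 to 1472 in the November libraries. DTX1 was highest in summer active too on this scale, and its r with the B-cell sum over the 8 libraries was 0.786, as a description. With columns set to equal totals the highest mean of DTX1 was in arousal, and the B-cell sum was not computed on that scale. In torpor 2 DTX1 stood at 88.3 and the B-cell sum at 1098. All 10 B-cell markers were below 0 in torpor against summer active, with a median of -1.58, and 2 of them were called lower. The 6 markers of marginal zone B cells summed to 651 and 852 in summer active, 639 and 754 in torpor, 460 and 674 in arousal, and 1021 and 766 in winter active, while NOTCH2 was lowest in summer active 2. CD9, the largest of the 6 in every library (220 to 530), carries much of this sum. The 6 did not move together. By state means CR2, S1PR3 and TNFRSF13B were highest in summer active, and CD1D, CD9 and MZB1 in winter active. CR2 stood at 32.2 and 251 in summer active and at 14.7 to 43.3 in November. Dendritic cell markers, 7 of 8 in the table and IRF8 among them, summed to 244 and 200 in summer active, 252 and 169 in torpor, 260 and 272 in arousal, and 391 and 243 in winter active. Torpor 2 was lowest and winter active 1 highest for this sum, as for HES1. Torpor 1, at 252, was above both summer active libraries for the sum, while for HES1 it was below both. IRF8, named above as the closest follower of HES1, and BATF3 held most of the sum, so its likeness to HES1 is partly built in. T-cell markers (7 of 10) summed to 215 and 244 in summer active and to 94.6 to 227 in the November libraries. Stromal and smooth muscle markers (12 of 12) spanned 825 to 1496. Their part in the members' values was not tested.

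Other-organ transcripts varied between single libraries. Hepatocyte markers (6 of 6) summed to 17420 in arousal 2 and 1041 in arousal 1, against 808 and 92.3 in torpor 1 and 2. Both arousal libraries were thus above both torpor libraries for this sum, as they were for JAG1, HES1 and RBPJ. Leaving out 1 arousal library cannot tell these apart. Pancreatic markers (5 of 7) reached 1334 in torpor 1, gastric markers (5 of 6) 1856 in winter active 2, adipocyte markers (5 of 6) 255 in winter active 2 and 246 in arousal 2, and the only squamous marker in the table, KRT4, 1617 in summer active 2. Neutrophil markers (6 of 6) reached 12004 in torpor 1 against 1414 in torpor 2, macrophage markers (10 of 10) spanned 4726 to 20200, and erythroid markers (7 of 8) were at 3997 and 5539 in summer active against 5.31 to 124 in November. HES1 was 14.8 in torpor 1 and 9.14 in torpor 2. The part of these transcripts in the members' values was not tested.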

How the data were processed

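Spleen RNA was isolated with a column kit and sequenced on Illumina libraries (labels' protocols). Per the submitters' processing notes, the tools were kallisto 0.46.2 with sleuth 0.30.0. The transcriptome used and the scaling are not stated in these sources. In the deposited table each entry is a TPM-type signal for 1 gene in 1 library. Its columns total 745098 to 1331820, so values were treated as a rescaled signal, in place of the plain TPM first planned for, with the same log-scale test. Depth is unknown.

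Genes with a mean of at least 1 were fitted on log2(value + 1) with limma 3.58.1 (lmFit, contrasts, eBayes with a trend) in R 4.3.3, all 8 libraries in 1 fit with 4 residual and 3.29 prior degrees of freedom, and p-values were adjusted over all 13542 genes by Benjamini-Hochberg, with 0.05 as the threshold. The fit was tested on simulated data. p-values measure the spread between the biological replicates only. The members, the list of 55 other pathway genes and the 115 markers (100 in the table) were chosen with earlier results of these data known. Named were all members, the 3 pathway genes with the smallest p in each direction and comparison, and the closest followers of each member; 1 pathway gene that the rule names is not reported here. Alternatives were a pseudocount of 0.1, no filter, columns set to 1000000, a replicate block and leaving out each library; in the last, a state left with 1 library takes its spread from the others, an assumption. No sequences of the members were used here.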

Additional observations from a re-analysis of the deposited data

How the results depend on the processing

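The 40 member differences (10 members, 4 comparisons) were each taken under 12 alternatives. Of these 480 values 14 turned direction, in 9 of the differences. Many of the 480 could not turn. No filter, the replicate block and leaving out a library of a state not compared left a difference as it was. Before any alternative no member passed the threshold, and HES1 has no p in the winter active comparisons. Keeping a side of the threshold therefore says little. Setting columns to 1000000 gave 445 genes called in arousal against torpor and 779 in winter active against summer active, where none and 140 were called before, and 3 and 2 members in these comparisons. It turned DLL1 in torpor against summer active to 0.26, and DTX1 to 0.32 in arousal against torpor and 0.20 in winter active against summer active. Without the filter 4 genes were called in winter active against torpor.

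Leaving out 1 library gave 9 (torpor 2) to 312 (summer active 1) genes called in torpor against summer active, where 76 were called before, with 21 without summer active 2, 31 without torpor 1, 50 without arousal 1 and 35 without either winter active library. It gave 15 (winter active 2) to 374 (summer active 1) in winter active against summer active, with 30 without summer active 2, 46 without winter active 1, 65 without either torpor library and 70 without either arousal library. It gave 0 to 2 (without either winter active library) in arousal against torpor, and 0 to 1 members in winter active against summer active, the 1 being DLL1 without summer active 1. Members that turned direction had leave-one-out ranges as follows. In torpor against summer active NOTCH1 lay between -0.16 and 0.52, NOTCH4 between -0.97 and 0.33, DLL1 between -0.58 and 0.37 and HEY1 between -0.65 and 0.99. DTX1 lay between -0.43 and 0.33 in arousal against torpor and between -0.28 and 0.48 in winter active against torpor. NOTCH2 lay between -0.32 and 0.72 in winter active against torpor and NOTCH4 between -0.45 and 0.84 in winter active against summer active. The cause of these changes was not tested.

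Replicate numbers in the labels do not mark shared animals. With the number as a replicate block, 85 genes were called in torpor against summer active and 103 in winter active against summer active, none in the other 2 comparisons, and no member in any. The deviations of same-numbered libraries correlated between -0.19 and 0.32 over the 6 pairs of states.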
